A study of Mus musculus with 4 samples.

Results

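The genes described here are the homeobox patterning transcription factors of the deposited expression table, chosen by symbol as the numbered *Dlx*, sine oculis-related (*Six2* and its relatives), *Lhx*, *Pax*, *Irx*, *Meis*, *Pbx*, *Msx*, *Emx*, *Otx*, *Hmx*, *Prrx*, *Nkx* and *Hoxa* to *Hoxd* genes, without *Lhx3*. They number 107 of the 23997 genes in the table. The rule is on names and uses no measured value, but it was set with earlier results of these data known. One of the 107, *Nkx2-2os*, is an RNA that lies beside *Nkx2-2* and codes for no homeodomain, and some *Pax* genes carry a paired domain in place of a complete homeodomain. RNA-Seq was used to compare 2 populations of hair cell (HC) progenitors from the cochlea of C57BL/6 mice at postnatal day 3. Lgr5+ progenitors were EGFP+ cells sorted from Lgr5-EGFP-IRES-creERT2 mice and Lgr6+ progenitors were EGFP+ cells sorted from Lgr6-EGFP-IRES-CreERT2 mice, so that both lines carry a reporter and CreERT2 at the locus used for sorting. The labels list 2 libraries per population, but the table holds 1 combined value per gene and population. The spread between replicates is therefore not known, and every difference below is a description of these combined values, with no test.

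Homeobox genes encode transcription factors that bind DNA through a homeodomain, and they give cells their position along the axes of the embryo. *Hox* genes lie in clusters and pattern the trunk and hindbrain, while *Six2* and its relatives and *Pax*, *Irx*, *Emx*, *Otx*, *Dlx* and *Hmx* genes act in the head, and several of them are needed to form the inner ear. *Pbx* and *Meis* proteins are partners that bind DNA together with other homeodomain proteins.

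The unit is FPKM, the number of fragments per kilobase of transcript, scaled to the number of mapped fragments, so that levels can be set side by side between genes. Differences are given as a log2 change, log2(FPKM + 1) of the Lgr6+ value less the same for the Lgr5+ value. A negative log2 change thus means a higher level in Lgr5+ cells. For low genes the added 1 makes the difference look smaller than it is. A gene was kept where either population reached an FPKM of 1, which left 13436 of all genes and 26 of the 107. A kept gene is called higher in a population when it differs by at least 1.5-fold on this scale. The summed FPKM of all genes in Lgr6+ cells was 83.3% of that in Lgr5+ cells. Low FPKM values fall on steps, and these were 3.2 times finer in Lgr6+ than in Lgr5+ cells, which would mean more fragments behind the Lgr6+ values if a step is the same number of fragments in both. A gene of low level would then be listed at 0 more readily in Lgr5+ cells, and a listed 0 may also stand for a level that could not be estimated.

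The sorted cells were checked by markers. *Lgr5* had an FPKM of 9.65 in Lgr5+ and 25.0 in Lgr6+ cells, and *Lgr6* had 2.06 and 2.90. Both sorting genes thus had the larger value in Lgr6+ cells, *Lgr5* by 2.59 times and *Lgr6* by 1.41 times in FPKM. *Lgr6*, with a log2 change of 0.35, did not pass 1.5-fold. Each line carries the reporter and CreERT2 at one of these loci, and the effect of this on both values was not tested. All 8 supporting cell markers were kept, and their summed FPKM was 3642 in Lgr5+ and 3657 in Lgr6+ cells, most of it from *S100a1* with 2959 and 3177. The other 7 were lower in Lgr6+ cells, and the median log2 change of the 8 was -0.36. Of these *Sox2*, with 140 and 54.8, and *Jag1*, with 108 and 59.2, passed 1.5-fold. The 7 HC markers summed to 234 and 525, and 6 of them were at least 1.5-fold higher in Lgr6+ cells. Markers of Schwann cells summed to 73.7 and 262 (3 of 5 higher in Lgr6+), those of endothelium to 7.90 and 53.4 (5 of 5) and those of macrophages to 0.905 and 204 (6 of 6). The macrophage genes *C1qb*, *C1qc*, *Tyrobp*, *Csf1r* and *Aif1* and the endothelial gene *Kdr* were listed at 0 in Lgr5+ cells. The 6 neuronal markers summed to 84.9 and 115, but the median log2 change of the 5 kept was -0.05. Of these 5, 1 passed 1.5-fold each way. *Snap25* had 7.63 in Lgr5+ and 53.4 in Lgr6+ cells, whereas *Tubb3* had 1.18 and 0.0959. *Neurod1* had 0.0209 in Lgr5+ and was listed at 0 in Lgr6+ cells. The 5 melanocyte markers summed to 0.507 and 3.85. Fewer cells of a type and less RNA per cell cannot be told apart in such bulk values.

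Most of the homeobox genes were not detected at this depth. In both populations 60 of the 107 were listed at 0, which is 56.1% against 31.6% of all genes in the table. Another 21 had a value above 0 but stayed below an FPKM of 1. The 26 kept genes are 24.3% of the 107, against 56.0% of all genes. Above 0 were 31 of the 107 in Lgr5+ and 45 in Lgr6+ cells. All 4 *Pbx* genes, both *Emx* genes and both *Prrx* genes were kept, as were 4 of the 6 sine oculis-related genes, 4 of 6 *Irx* genes and 2 of 3 *Meis* genes. By contrast 1 of 7 *Lhx* genes, 1 of 9 *Pax* genes, 3 of 15 *Nkx* genes and 2 of 39 *Hox* genes were kept. No *Dlx*, *Msx* or *Hmx* gene was kept, and *Hmx2* and *Hmx3*, known from the vestibular part of the ear, and *Hmx1* were listed at 0 in both populations.

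**Figure D1:**
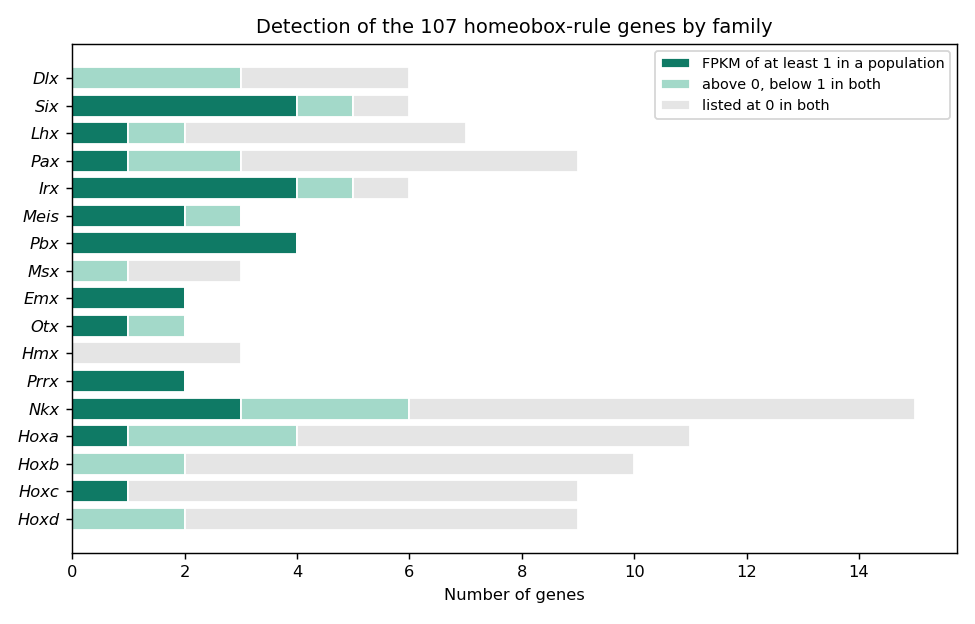
The horizontal axis gives the number of genes in each family of the 107, split into those reaching an FPKM of 1 in a population (dark), those above 0 but below 1 in both (pale) and those listed at 0 in both (grey). Of the 39 *Hox* genes 30 are listed at 0 in both populations, whereas all 4 *Pbx* genes are kept.

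Levels of the kept genes spread over a wide range. The 107 genes summed to an FPKM of 519 in Lgr5+ and 459 in Lgr6+ cells. In Lgr5+ cells *Irx3* was the highest of the 107, at rank 1058 of the 14558 genes above 0. In Lgr6+ cells *Six2* was the highest of the 107, at rank 1735 of 15782 genes, and *Irx3* stood at rank 1860.

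**Figure D2:**
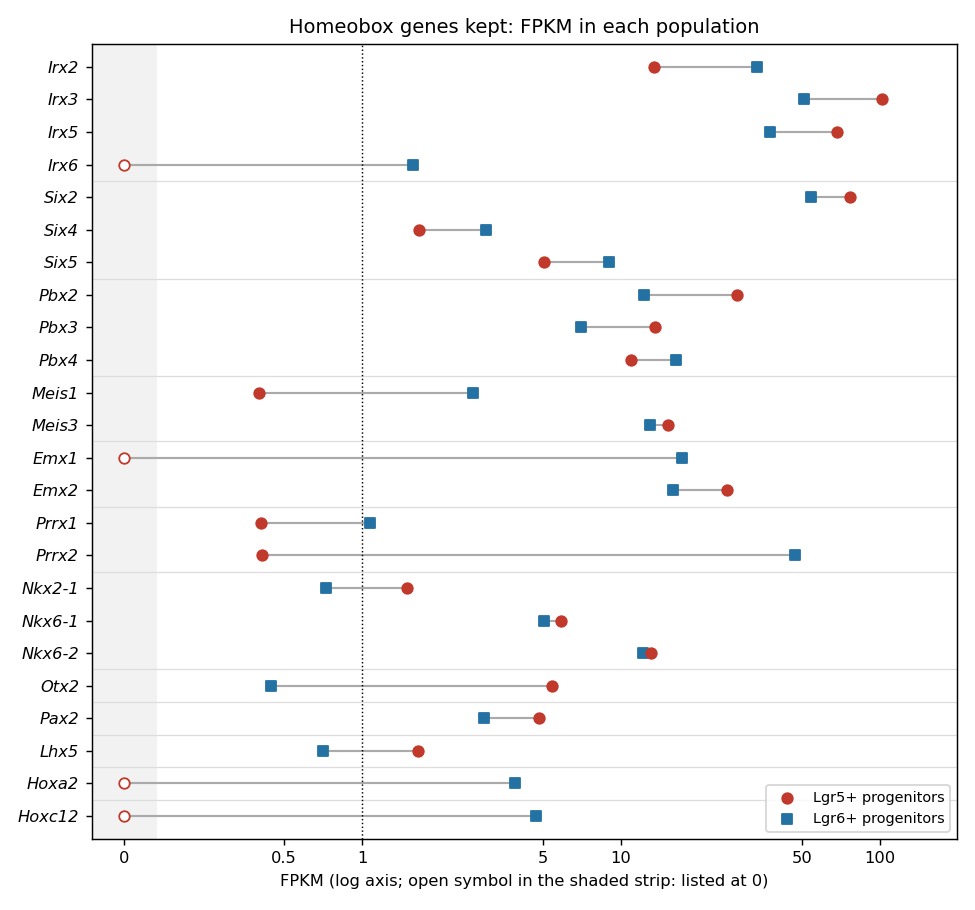
FPKM of 24 kept genes is drawn on a log axis, with circles for Lgr5+ and squares for Lgr6+ cells and open symbols in the shaded strip for values listed at 0. The pairs of *Meis3*, *Nkx6-1* and *Nkx6-2* lie close together, while *Prrx2*, *Emx1* and *Otx2* are far apart.

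Of the 26 kept genes, 7 were higher by 1.5-fold or more in Lgr5+ cells, beside 23.3% of all kept genes, and 9 were so in Lgr6+ cells, beside 28.5% of all kept genes. These shares of the 26 are 26.9% and 34.6%, near those of all genes. At 2-fold the numbers were 2 and 7, beside 11.7% and 18.2% of all kept genes. The median log2 change of the 26 was -0.14, against 0.03 for all kept genes. Without the genes listed at 0 in 1 population these medians were -0.35 and 0.00. When both populations were rescaled to the same sum, 28 of the 107 were kept, with *Dlx3* and *Irx1* added. Of these 5 were higher by 1.5-fold or more in Lgr5+ cells, beside 16.8% of all genes kept then, and 13 in Lgr6+ cells, beside 38.7%. That scaling moved the median of all kept genes from 0.03 to 0.30. All 4 kept genes that were listed at 0 in 1 population, *Emx1*, *Hoxa2*, *Hoxc12* and *Irx6*, were at 0 in Lgr5+ cells. They were thus kept only through their Lgr6+ values. Of all genes, 9439 were listed at 0 in Lgr5+ and 8215 in Lgr6+ cells, with 7592 at 0 in both, so zeros in Lgr5+ cells alone were the more common kind.

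**Figure D3:**
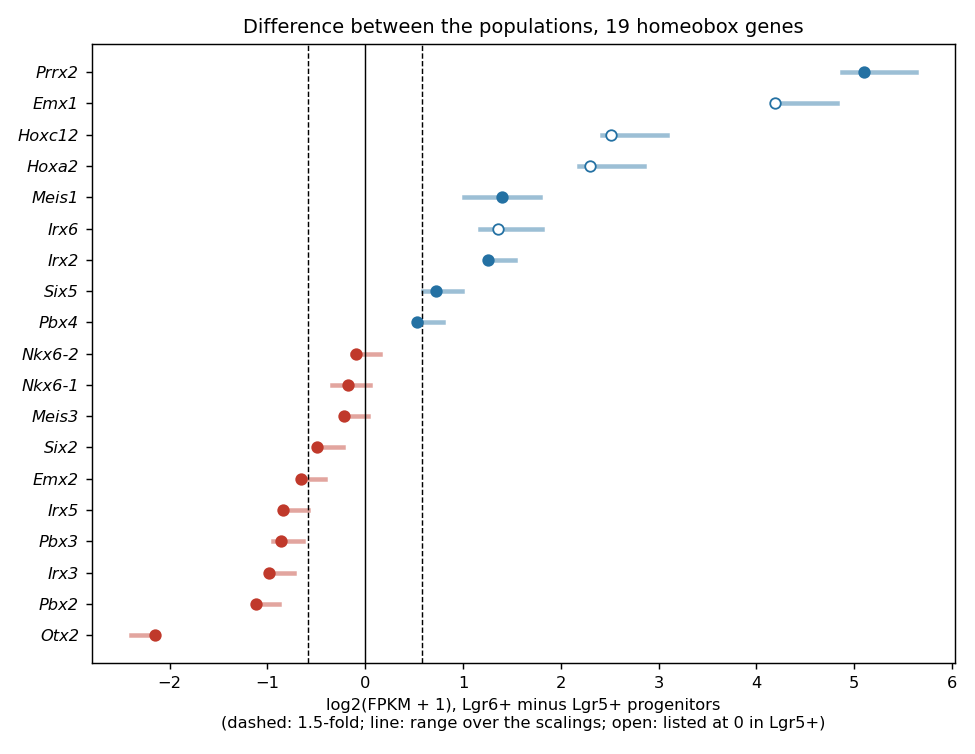
The horizontal axis gives the log2 change of 19 genes, with points as reported, lines for the range over 3 other scalings, dashed lines at 1.5-fold and open points for genes listed at 0 in Lgr5+ cells. The lines of *Meis3*, *Nkx6-1* and *Nkx6-2* cross 0, while *Otx2*, *Pbx2* and *Irx3* stay at least 1.5-fold below it and *Prrx2* and *Irx2* above it.

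Of the 4 kept Iroquois genes, 2 were higher in Lgr5+ cells and 2 in Lgr6+ cells. They encode homeodomain proteins of the same broad class as *Pbx* and *Meis*, and in mouse they lie in 2 clusters of 3 genes. On chromosome 8, *Irx3* (91798511 to 91801654) had an FPKM of 102 in Lgr5+ cells and 50.9 in Lgr6+ cells, a log2 change of -0.99. Its neighbor *Irx5* (92357796 to 92361456) had 68.5 and 37.8, a log2 change of -0.84. Both were thus higher in Lgr5+ cells, by 2.00 and 1.81 times in FPKM. *Irx6*, the third gene there, was listed at 0 in Lgr5+ and had 1.57 in Lgr6+ cells. On chromosome 13, *Irx2* (72628978 to 72634194) went the other way, with 13.5 in Lgr5+ and 33.6 in Lgr6+ cells and a log2 change of 1.26. It shares 4135 bases with the noncoding gene *Gm20554*, whose own FPKM was 0.449 and 2.15, and reads of the pair may not have been told apart. *Irx1* in that cluster was listed at 0 and had 0.885, and *Irx4* was listed at 0 in both populations. Within neither cluster, then, did all 3 genes share a level or a direction.

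The promoters of *Irx3* and *Irx2* are shown because these related genes lay on opposite sides. They are the 250 bases before the annotated start in RefSeq, build GRCm38.p6, from 5′ to 3′, in lower case throughout, since neither holds the motif TAATTA, the motif TGACAG or the motif GGATTA on either strand. The *Irx3* stretch is chr8:91801655-91801904 on the minus strand and that of *Irx2* is chr13:72628570-72628819 on the plus strand.
Irx3: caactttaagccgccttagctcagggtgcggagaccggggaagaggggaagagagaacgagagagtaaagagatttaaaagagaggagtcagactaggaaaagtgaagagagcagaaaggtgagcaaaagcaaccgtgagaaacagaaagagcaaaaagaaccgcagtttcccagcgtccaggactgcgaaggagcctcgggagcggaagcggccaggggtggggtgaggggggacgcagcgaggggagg
Irx2: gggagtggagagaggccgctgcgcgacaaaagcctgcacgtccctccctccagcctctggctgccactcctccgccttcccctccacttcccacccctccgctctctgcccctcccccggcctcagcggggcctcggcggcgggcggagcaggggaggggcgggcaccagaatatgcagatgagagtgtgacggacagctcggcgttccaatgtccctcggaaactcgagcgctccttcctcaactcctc

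The sine oculis-related proteins act with *Eya* coactivators. *Six2* (chromosome 17, 85684268 to 85688254), known for its role in nephron progenitors of the kidney, had an FPKM of 76.8 in Lgr5+ and 54.4 in Lgr6+ cells, a log2 change of -0.49. It was thus higher in Lgr5+ cells, but by less than 1.5-fold. *Six4* and *Six5* were lower and went the other way. *Six5* had 5.03 and 8.96, a log2 change of 0.72, and it shares 279 bases with *Bhmg1*. *Six4* had 1.66 and 3.01, a log2 change of 0.59, but it shares 1847 bases with *Mnat1*, whose FPKM was 67.4 and 19.2. *Six3*, the neighbor of *Six2*, had only 0.0371 and 0.0341, and *Six6*, near *Six4*, was listed at 0 in both populations.

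The *Pbx* genes, which encode partners of *Hox* proteins, did not all differ the same way. *Pbx2* had an FPKM of 28.0 in Lgr5+ and 12.3 in Lgr6+ cells, a log2 change of -1.12, and *Pbx3* had 13.6 and 7.04, a log2 change of -0.86. *Pbx4* had 10.9 and 16.3, a log2 change of 0.53, and passed 1.5-fold only when the populations were rescaled to the same sum, where it was 0.80. The order of these genes therefore differed, with *Pbx2* before *Pbx3* and *Pbx4* in Lgr5+ cells and *Pbx4* before *Pbx2* and *Pbx3* in Lgr6+ cells. Of the related *Meis* genes, *Meis3* had 15.2 and 12.9, a log2 change of -0.22, which turned to 0.03 when the populations were rescaled to the same sum. *Meis1* had 0.398 and 2.68, a log2 change of 1.40. *Meis2* had 0.0540 and 0.0435, far below the level kept.

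The 2 *Emx* genes, known for patterning the cerebral cortex, went opposite ways. *Emx2*, which also sets the orientation of hair bundles in the ear, had an FPKM of 25.8 in Lgr5+ and 16.0 in Lgr6+ cells. Its log2 change of -0.66 passed 1.5-fold as deposited and was -0.41 when the populations were rescaled to the same sum. *Emx1* (chromosome 6, 85187931 to 85204463) was listed at 0 in Lgr5+ cells and had 17.2 in Lgr6+ cells, at rank 4670. The Lgr6+ value stands for about 587 steps, and the same FPKM in Lgr5+ cells would be about 183 steps. In Lgr6+ cells the levels of *Emx1* and *Emx2* were hence close, at 17.2 and 16.0, whereas in Lgr5+ cells *Emx2* alone had a value.

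The promoters of both genes, read in the same way, are shown as the pair of paralogs of which one was listed at 0 in a population. That of *Emx1* is chr6:85187681-85187930 and that of *Emx2* is chr19:59458440-59458689, both on the plus strand. Neither holds one of the 3 motifs. Their shares of G and C are 75.6% and 67.2%, against a median of 52.4% over 32851 promoters of that length.
Emx1: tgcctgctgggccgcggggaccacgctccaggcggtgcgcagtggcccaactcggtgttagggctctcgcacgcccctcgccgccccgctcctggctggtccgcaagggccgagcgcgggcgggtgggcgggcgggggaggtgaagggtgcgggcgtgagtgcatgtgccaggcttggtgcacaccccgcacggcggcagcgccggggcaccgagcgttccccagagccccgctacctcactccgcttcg
Emx2: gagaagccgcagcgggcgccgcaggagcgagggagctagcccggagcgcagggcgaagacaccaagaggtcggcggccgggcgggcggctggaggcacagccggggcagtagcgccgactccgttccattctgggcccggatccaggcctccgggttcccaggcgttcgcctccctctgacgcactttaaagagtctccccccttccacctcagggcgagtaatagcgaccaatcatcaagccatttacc

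*Prrx2*, on chromosome 2 from 30845367 to 30881247, differed most among the genes with a value in both populations. Like *Prrx1* it is known from the mesenchyme of the face and limbs. It had an FPKM of 0.410 in Lgr5+ and 47.3 in Lgr6+ cells, 115 times in FPKM and a log2 change of 5.10. It stood at rank 12784 in Lgr5+ and at rank 1978 in Lgr6+ cells. *Prrx1* had 0.406 and 1.07, a log2 change of 0.56, so the 2 genes were level in Lgr5+ cells and far apart in Lgr6+ cells. The 10 markers of mesenchyme and fibrocytes summed to 325 and 348. Most of the Lgr5+ sum was *Lum*, with 179 in Lgr5+ and 101 in Lgr6+ cells, and *Dcn*, with 91.8 and 74.9. Only *Lum* passed 1.5-fold toward Lgr5+ cells. Toward Lgr6+ cells 4 of the 10 did, among them *Col1a2* with 15.9 and 90.2. The median log2 change of the 10 was 0.47, against 0.03 for all kept genes. None of these markers was listed at 0. The part of these cells in the values of *Prrx2*, *Prrx1* and *Meis1* was not tested.

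*Otx2*, a factor of the forebrain and midbrain that also acts in nonsensory epithelium of the ear, was the gene with the largest log2 change toward Lgr5+ cells. It had an FPKM of 5.42 in Lgr5+ and 0.445 in Lgr6+ cells, 12.2 times in FPKM and a log2 change of -2.15. *Otx1* had 0.273 and 0.232. The other 5 markers of roof and lateral wall epithelium moved with *Otx2* in sum, at 499 in Lgr5+ and 113 in Lgr6+ cells. Most of that was *Oc90*, with 494 and 107, and *Lmx1a*, itself a homeobox gene, had 5.06 and 1.02. *Kcnq1* went the other way, listed at 0 and at 4.83, *Esrrb* was listed at 0 in Lgr5+ cells and *Kcne1* was listed at 0 in both. The part of such cells in the value of *Otx2* was not tested.

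*Otx2* has 4 annotated starts in RefSeq, and one of their promoters is shown because it held the most motif matches among the genes described. It is chr14:48665110-48665359 on the minus strand. Capitals mark TAATTA, a core bound by many homeodomains that reads the same on both strands, found 3 times, and GGATTA, the core bound by *Otx* proteins, found once. The matches do not overlap.
Otx2: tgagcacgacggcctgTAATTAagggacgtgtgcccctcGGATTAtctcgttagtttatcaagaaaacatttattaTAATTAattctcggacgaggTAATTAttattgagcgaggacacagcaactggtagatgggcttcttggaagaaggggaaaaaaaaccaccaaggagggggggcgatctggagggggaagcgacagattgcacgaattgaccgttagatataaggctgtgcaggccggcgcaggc

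TAATTA stood in 4.84% of all 32851 promoter stretches, GGATTA, searched also as TAATCC, in 6.25%, and TGACAG, the core bound by *Meis* proteins, searched also as CTGTCA, in 15.9%. Promoters were matched for 19 of the 26 kept genes, with 25 stretches in all. TAATTA was found in 3 of the 25, of *Otx2* and *Prrx1*, GGATTA in 1, of *Otx2*, and TGACAG in 3, of *Hoxa2*, *Six2* and *Six5*. A match is a run of letters and not a site shown to be bound.

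The remaining kept genes other than *Nkx6-2* lay below the median FPKM of all kept genes, 9.4 in Lgr5+ and 9.95 in Lgr6+ cells. *Nkx6-2*, known from oligodendrocytes and the ventral neural tube, had an FPKM of 13.0 in Lgr5+ and 12.2 in Lgr6+ cells, and it shares 277 bases with *Inpp5a*, whose FPKM was 18.4 and 10.8. The interval given for *Nkx6-2*, chromosome 7 from 139389109 to 139582797, is much wider than that of *Nkx2-1* or *Nkx6-1*. The value of *Nkx6-2* is therefore uncertain. *Nkx6-1*, known from pancreatic beta cells and motor neurons, had 5.86 and 5.06. Their log2 changes of -0.09 and -0.18 turned to 0.16 and 0.05 when the populations were rescaled to the same sum. *Pax2*, which is needed for the cochlear duct to grow out, had 4.81 and 2.95, a log2 change of -0.56. *Nkx2-1*, a factor of thyroid and lung, had 1.48 and 0.725, and *Lhx5*, a LIM-homeodomain factor of the forebrain, had 1.65 and 0.707. All 5 were thus higher in Lgr5+ cells as deposited, but on log2(FPKM + 1) *Lhx5* alone passed 1.5-fold, with a log2 change of -0.63. In FPKM itself *Lhx5* differed by 2.33 times, *Nkx2-1* by 2.05 times and *Pax2* by 1.63 times. With a pseudocount of 0.1, and also after quantile normalization, these genes all passed 1.5-fold. When rescaled to the same sum none of them did.

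The *Hox* clusters were nearly empty. Of 39 genes, 30 were listed at 0 in both populations, 2 had a value in Lgr5+ cells and 9 had one in Lgr6+ cells. *Hoxa2* (chromosome 6, 52162417 to 52164831), which patterns the second branchial arch and the hindbrain, was listed at 0 in Lgr5+ and had an FPKM of 3.91 in Lgr6+ cells. That value stands for about 218 steps, and the same FPKM in Lgr5+ cells would be about 68.1 steps. *Hoxc12* (chromosome 15, 102936853 to 102938517), a gene of the posterior trunk, was listed at 0 and had 4.72, for about 98.2 steps. The same FPKM in Lgr5+ cells would be about 30.7 steps. Each stood alone in its cluster. The other 10 *Hoxa* genes had no value above 0.232, which was that of *Hoxa9* in Lgr6+ cells, and the other 8 *Hoxc* genes were listed at 0 in both populations. In the *Hoxb* cluster the values above 0 were 0.0193 for *Hoxb4* and 0.0200 for *Hoxb9*, both in Lgr6+ cells. In the *Hoxd* cluster *Hoxd10* had 0.106 and 0.0243 and *Hoxd11* had 0.141 and 0.0451. The table gives *Hoxa3*, *Hoxa4*, *Hoxa5* and *Hoxa6* the same interval, and also *Hoxd3* and *Hoxd4*, so that the values of these neighbors are uncertain.

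Of the 21 genes above 0 that were not kept, 8 have 1 annotated transcript, and 3 of these stood for at most about 3 steps in either population. *Dlx3* was the highest *Dlx* gene of Lgr6+ cells with 0.752, against 0.0713 in Lgr5+ cells. *Dlx5*, which patterns the dorsal part of the otic vesicle, was listed at 0 in Lgr5+ cells and had 0.130 in Lgr6+ cells, about 3.99 steps. *Dlx1* had 0.546 in Lgr5+ cells and was listed at 0 in Lgr6+ cells. *Msx1* had 0.149 and 0.458 and overlaps an antisense RNA. These differences were not tested.

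**Figure D4:**
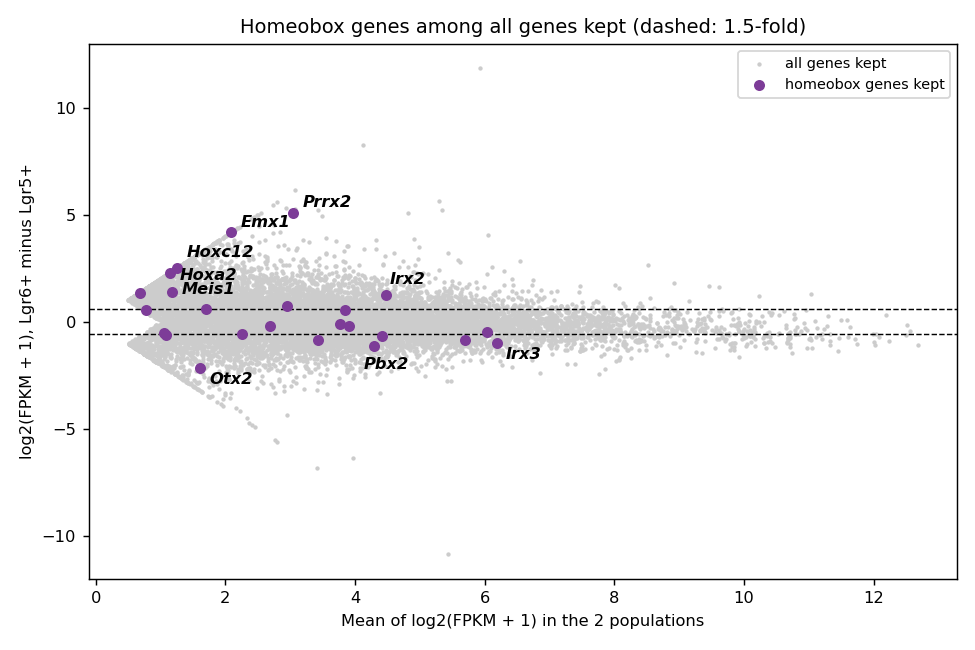
Each point is a gene, with the mean of its log2(FPKM + 1) over both populations on the horizontal axis and its log2 change on the vertical axis. The 24 kept homeobox genes drawn in purple lie within the spread of the 13436 kept genes (grey), and *Prrx2*, at 5.10, is the highest of them.

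When genes at most 1 Mb from the next one were grouped, 69 of the 107 fell into 16 groups. In 8 of the groups no gene was kept, and in 2 groups more than 1 gene was kept. One of them was *Irx3*, *Irx5* and *Irx6* on chromosome 8, with a summed FPKM of 170 in Lgr5+ and 90.3 in Lgr6+ cells. *Nkx2-1* was the only kept gene beside *Nkx2-9* and *Pax9*, and *Nkx6-2* the only one beside *Msx3*.

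Partners of these factors and related genes were mostly measured at levels well above 1. Of 45 symbols listed for partners and related homeobox genes, 44 were in the table and 42 were kept. The symbol not found, *Tle5*, is another name of *Aes*, which is among those kept. Of the 42, 8 were higher in Lgr5+ cells by 1.5-fold or more, beside 23.3% of all kept genes. In Lgr6+ cells 4 were so, beside 28.5% of all kept genes, and 30 differed by less. *Eya1*, a coactivator of sine oculis-related proteins, had an FPKM of 45.4 in Lgr5+ and 43.5 in Lgr6+ cells, so it was nearly level. Among the 6 partners of the sine oculis-related proteins, only *Dach2*, a corepressor, passed 1.5-fold, with 2.17 and 0.188. Of the 4 listed genes related to *Pbx* and *Meis*, which were *Pknox1*, *Pknox2*, *Tgif1* and *Tgif2*, only *Tgif2* passed, with 21.8 and 13.0. Of the 7 genes listed for LIM factors, *Isl1*, with 233 and 117, and *Ldb2*, with 10.4 and 6.50, were higher in Lgr5+ cells. *Isl1* is itself a LIM homeobox gene outside the naming rule. *Lmo2*, which is also a gene of blood and endothelium, was higher in Lgr6+ cells with 0.204 and 13.2. *Isl1* thus stood above every one of the 107 genes in both populations. Among the other otic homeobox genes, *Lmx1a* was higher in Lgr5+ cells, and *Zeb1*, with 0.615 and 3.08, and *Tshz3*, with 0.656 and 4.66, were higher in Lgr6+ cells. Of the Groucho corepressors *Tle1*, with 24.6 and 15.3, and *Tle3*, with 16.7 and 9.49, were higher in Lgr5+ cells. All 11 Polycomb and Trithorax genes, which keep *Hox* genes off or on, were kept. Of these *Eed* was higher in Lgr5+ cells, with 15.0 and 9.29, *Rnf2* was higher in Lgr6+ cells, with 12.0 and 19.3, and the other 9 differed by less than 1.5-fold.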

How the data were processed

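Approximately equal numbers of sorted Lgr5+ and Lgr6+ cells from cochleae at postnatal day 3 were used for RNA-Seq. The labels list 2 libraries per population, while the study's methods describe RNA split into 3 fractions, which would share one extraction. After cDNA amplification with a kit for low input, Trimmomatic served for trimming, TopHat for mapping and Cufflinks for FPKM values, with RefGene annotation. Versions are not given in the sources used here. The methods name mm9 and the submitters' processing notes mm10. The intervals of the deposited table match GRCm38, overlapping the RefSeq gene for 98.8% of 22500 symbols, and their starts are counted from 0, so that 1 was added. The authors deposited 1 FPKM per gene for each population, which combines its libraries and is scaled to transcript length and to the number of mapped fragments. The table also holds the fold change, *p*-value and *q*-value of the authors' own comparison, which were not used here.

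A difference was calculated as log2(FPKM + 1) in Lgr6+ minus Lgr5+ progenitors. Kept genes reached an FPKM of 1 in either population, and 1.5-fold was the threshold. No test was possible with 1 value per population, so no *p*-value is given. Steps were found in low FPKM values multiplied by transcript length less 200 bases, for 7696 genes with 1 transcript in the GENCODE M1 annotation, and lay at 0.128 FPKM times kb in Lgr5+ and 0.0399 in Lgr6+ progenitors. Whether a step is 1 fragment of 1 library is not known. The cDNA was amplified, so fragments are not independent molecules. Strand-specific counting is not stated, so overlapping genes are uncertain. Promoters came from RefSeq tables of GRCm38.p6, matched by symbol for 73 of the 107 genes, with 250 bases before each start.

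Described one by one were kept genes that reached an FPKM of 5 in either population or differed by 2-fold, the highest gene of each family, and the partner genes at least 1.5-fold apart. Any other gene was picked with its values in view. Some genes that meet this rule are counted but not reported here one by one. Protein stretches, planned for leading genes, were not used here. The gene rule and all lists were chosen with earlier results of these data known. Alternatives were a pseudocount of 0.1, no filter, a minimum of 5, a minimum of 1 in both populations, scaling to the same sum (TPM) or upper quartile, quantile normalization and a 2-fold threshold. Scripts ran under Python 3.11.15 (with numpy 2.4.6, pandas 2.3.3, matplotlib 3.10.9) and were tested on simulated data.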

Additional observations from a re-analysis of the deposited data

How the results depend on the processing

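No paired analysis was possible because the table holds 1 combined value per population, and for the same reason no replicate could be left out. The number of homeobox genes at least 1.5-fold higher in Lgr6+ progenitors was 9 of 26 as reported. With a minimum FPKM of 5 it was 4 of 17, beside 2415 of 10013 genes in all (24.1%). Where each population had to reach an FPKM of 1 it was 3 of 16, beside 2392 of 11177 (21.4%). Under these filters 6 and 5 genes were higher in Lgr5+ progenitors, beside 24.1% and 22.5% of all genes kept. The side with more genes thus changed from Lgr6+ to Lgr5+. After quantile normalization 9 were higher in Lgr5+ and 8 in Lgr6+ progenitors, beside 26.5% and 24.7%. The number higher in Lgr5+ progenitors, 7 as reported, was 2 at a 2-fold threshold, where 1575 of all genes were higher in Lgr5+ and 2443 in Lgr6+ progenitors. The median log2 change of the kept homeobox genes, -0.14 as reported and 0.26 when rescaled to the same sum, was 0 without a filter, -0.24 after quantile normalization, and -0.35 both where each population had to reach an FPKM of 1 and without genes listed at 0 in 1 population, the last of which was chosen after seeing the data. A pseudocount of 0.1 and the 3 scalings were applied to the 21 kept genes that reached an FPKM of 5 or differed by 2-fold on log2(FPKM + 1). Of their 84 values, 79 kept their direction and their side of 1.5-fold. The other 5, of *Emx2*, *Pbx4*, *Meis3*, *Nkx6-1* and *Nkx6-2*, came from rescaling to the same sum and are given with these genes. The remaining kept genes were not in this count. Of them, *Nkx2-1*, *Pax2* and *Prrx1* came to pass 1.5-fold with a pseudocount of 0.1. *Nkx2-1* and *Pax2* also passed after quantile normalization, and *Prrx1* when rescaled to the same sum. *Lhx5* no longer passed when rescaled to the same sum, nor did *Six4* after quantile normalization. Depth limits values below an FPKM of 1, and the steps are coarser in Lgr5+ progenitors.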
